A study of Homo sapiens with 12 samples.

Results

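The NRF2 antioxidant and NADPH genes described here are 34 named genes of the KEAP1-NRF2 system, glutathione and thioredoxin metabolism, NADPH production, and the enzymes and exporters that NRF2 is known to control. They were chosen by name, and each of the 34 matched 1 of the 61541 Ensembl identifiers in the deposited count table. All 34 passed the filter on low counts, which kept 16768 genes. The cells were labelled as A549, an established human lung adenocarcinoma line, and all groups carried a Cas9 guide and were taken 14 days after transduction with no further treatment. The 4 groups of 3 libraries were cells with a non-targeting guide (genotype NTC KO) grown alone, the same genotype in co-culture, cells with a guide against TYMS (genotype TYMS KO) grown alone, and the TYMS KO genotype in co-culture. TYMS encodes thymidylate synthase, and the series text says that co-culture with parental A549 cells restored proliferation of the knockout cells. The labels do not give the partner of the co-cultured control, state if partner cells were removed before RNA extraction, or say whether a genotype was 1 clone or a pool. Replicates are numbered libraries, and no label ties them to separate cultures, so p-values measure the spread between these libraries, which may be technical.

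NRF2, the product of NFE2L2, is a transcription factor that is normally held at low levels by KEAP1, an adaptor of the CUL3 ubiquitin ligase. When electrophiles or oxidants modify KEAP1, NRF2 escapes degradation, pairs with small MAF proteins and binds antioxidant response elements beside genes of glutathione synthesis, thioredoxin reduction, NADPH supply and detoxification. A549 is known for a mutant KEAP1 that leaves NRF2 active without such a stimulus, so its targets are usually high in this line.

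Levels are given as CPM, counts per 1e6 counts after TMM scaling of the library sizes. Library totals ranged from 14921371 to 35723762 counts. TYMS, the targeted gene, ranged from 90.3 to 101 CPM in the 6 control-labelled libraries. Knockout libraries had 20.3 to 21.4 CPM of TYMS when grown alone and 10.7 to 11.4 CPM after co-culture. This fall was 1.89-fold (log2 fold change -0.92 ± 0.11 SE, with an edgeR adjusted p = 0.000307). For TYMS, the co-culture difference in knockout minus that in control-labelled cells was -0.89 (± 0.15 SE, with an edgeR adjusted p = 0.0107). Its part in the other co-culture results was not tested. The 9p21 genes went against a label. A549 is known to have lost CDKN2A, CDKN2B and MTAP on chromosome 9 from both copies, and the summed level of these 3 genes was 154 to 166 CPM in the lone and 122 to 142 CPM in the co-cultured libraries labelled control. In the lone knockout it was 0.548 to 0.647 CPM, with CDKN2A and CDKN2B at 0 counts in all 3 libraries, and in the co-cultured knockout it was 0.302 to 0.745 CPM, with CDKN2B at 0. The epithelial adhesion gene EPCAM also separated them, at 104 ± 13.6 CPM (mean ± SD over 3 libraries) in the lone control-labelled and 0.620 ± 0.264 CPM (mean ± SD over 3 libraries) in the lone knockout libraries. Of the keratins, KRT7 was 3.12-fold higher in the lone knockout (edgeR adjusted p = 0.000335), KRT19 was 6.83-fold lower (edgeR adjusted p = 1.94e-06), KRT8 was 1.92-fold lower (edgeR adjusted p = 0.00363) and KRT18 was not called (edgeR adjusted p = 0.117). The A549 detoxification markers ALDH1A1, AKR1B10 and AKR1C1 summed to 1686 to 2399 CPM in the lone control-labelled and 5940.3 to 6689 CPM in the lone knockout libraries. Detoxification genes are among the NRF2 targets named above, so these markers are not independent of the members. Because of the 9p21 genes and EPCAM, the 6 libraries with the non-targeting guide are called control-labelled throughout. A difference between them and the knockout goes with the guide, with the 9p21 genes and with EPCAM in every library. These cannot be told apart here, since no comparison of genotypes can be made without the control-labelled libraries. Whether the control-labelled and knockout cells came from the same line or clone was not tested. A difference of line or clone cannot be told apart from the guide in any comparison of genotypes below. Markers of other cell types were low: 6 fibroblast genes summed to at most 24.5 CPM, 5 leukocyte genes to at most 3.76 CPM with CD3E at 0 in all 12 libraries, and 4 endothelial genes to at most 2.73 CPM. The leukocyte sum was highest in the co-cultured knockout (2.65 to 3.76 CPM, against 0.852 to 0.974 CPM in the lone knockout), and its part in the results was not tested.

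The promoters were searched for the core of the antioxidant response element, TGACNNNGC, where N is any base, on both strands of the 250 bases before the start of each gene. RefSeq promoters on GRCh38.p14 were found for 24 of the 34 members, and 7 of these (29.2%) held a match: GCLM, TXNRD1, PGD, ME1, GPX2, CBR1 and CYP4F11. Among all 35116 promoters of the same length in that table, 10.9% held a match. Only the first promoter of each member was used, while the 35116 were not reduced to 1 per gene, so the shares differ in unit. The members were also chosen partly as genes that NRF2 is known to control, and the shares were not compared by a test. The core shares its first 4 letters with the AP-1 site TGACTCA, and 1 of the member matches, that of ME1, contains TGACTCA. The 6 windows below are shown 5′ to 3′ on the strand of the gene, with the match in capitals, because their genes have quite different values: TXNRD1, GCLM, CBR1, ME1 and CYP4F11 were higher in the lone knockout, and GPX2 was not called. The PGD window also held a match and is not shown, and PGD was called neither alone (edgeR adjusted p = 0.34) nor in co-culture (edgeR adjusted p = 0.14). Of members without a match, TXN was higher and KEAP1 lower, and a tie of matches to levels was not tested.
TXNRD1 (chr12:104215529-104215778, plus strand): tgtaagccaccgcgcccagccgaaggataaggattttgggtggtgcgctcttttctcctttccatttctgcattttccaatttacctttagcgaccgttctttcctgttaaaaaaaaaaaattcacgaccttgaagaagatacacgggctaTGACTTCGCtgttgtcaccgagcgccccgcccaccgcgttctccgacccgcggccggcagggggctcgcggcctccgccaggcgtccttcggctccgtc
GCLM (chr1:93909431-93909680, minus strand): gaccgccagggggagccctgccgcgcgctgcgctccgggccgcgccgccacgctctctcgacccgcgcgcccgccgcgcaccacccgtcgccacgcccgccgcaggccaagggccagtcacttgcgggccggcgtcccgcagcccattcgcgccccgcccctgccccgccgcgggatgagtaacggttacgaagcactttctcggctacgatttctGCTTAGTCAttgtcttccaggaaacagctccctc
CBR1 (chr21:36069774-36070023, plus strand): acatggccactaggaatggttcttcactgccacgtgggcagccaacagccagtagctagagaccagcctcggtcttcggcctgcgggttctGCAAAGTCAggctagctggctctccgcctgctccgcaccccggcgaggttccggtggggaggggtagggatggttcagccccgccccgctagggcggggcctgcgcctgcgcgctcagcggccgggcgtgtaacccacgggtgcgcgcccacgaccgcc
ME1 (chr6:83431052-83431301, minus strand): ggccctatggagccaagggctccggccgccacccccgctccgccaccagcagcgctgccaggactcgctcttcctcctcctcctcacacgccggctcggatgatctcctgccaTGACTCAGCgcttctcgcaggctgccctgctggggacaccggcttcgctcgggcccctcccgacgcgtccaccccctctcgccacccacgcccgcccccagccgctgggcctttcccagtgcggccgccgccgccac
CYP4F11 (chr19:15934868-15935117, minus strand): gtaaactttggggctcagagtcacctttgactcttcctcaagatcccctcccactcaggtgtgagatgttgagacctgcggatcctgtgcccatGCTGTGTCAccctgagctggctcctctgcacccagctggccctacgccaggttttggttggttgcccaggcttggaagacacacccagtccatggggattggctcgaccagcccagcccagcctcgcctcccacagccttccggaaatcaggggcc
GPX2 (chr14:64942746-64942995, minus strand): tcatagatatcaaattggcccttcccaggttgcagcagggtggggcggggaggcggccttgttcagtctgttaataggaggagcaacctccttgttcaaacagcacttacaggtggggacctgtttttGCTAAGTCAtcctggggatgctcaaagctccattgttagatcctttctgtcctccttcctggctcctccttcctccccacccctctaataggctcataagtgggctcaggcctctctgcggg
A match describes letters only, and a window without one, such as that of NQO1 or NFE2L2, says nothing of elements further away.

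Most NRF2 genes were higher in the knockout than in the control-labelled cells, both alone and in co-culture. Of the 34 members, 28 were higher and 1 was lower in the lone knockout, and 5 were not called, at an edgeR adjusted p under 0.05 over all genes. Of all genes tested in that comparison, 28% were higher and 28.6% were lower. In co-culture 26 members were higher, 1 was lower and 7 were not called, beside 24.1% higher and 25.3% lower among all genes. These comparisons share no library. All 26 members higher in co-culture were also higher alone, which is 92.9% of the 28, and KEAP1 was the lower member in both. Among all genes, 64.5% of those higher alone were higher in co-culture. The median log2 fold change of the members was 1.19 alone and 0.97 in co-culture, against 0.09 and -0.02 over all genes. With 1.5-fold as the smallest change tested, 20 members were higher alone and 18 in co-culture, and KEAP1 was called in neither. With GC offsets the numbers were 28 and 28. Shares of all genes in these settings are not given here. The median with GC offsets was 1.1 alone and 1.03 in co-culture for the members, against 0.03 and 0.03 over all genes. Without the offsets, the lone differences of all genes had a rank correlation with transcript GC of -0.458 over 13574 genes, those of the members -0.251 over 34. In bulk RNA, a change in the share of cells with a transcript and a change in RNA per cell cannot be told apart.

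**Figure D1:**
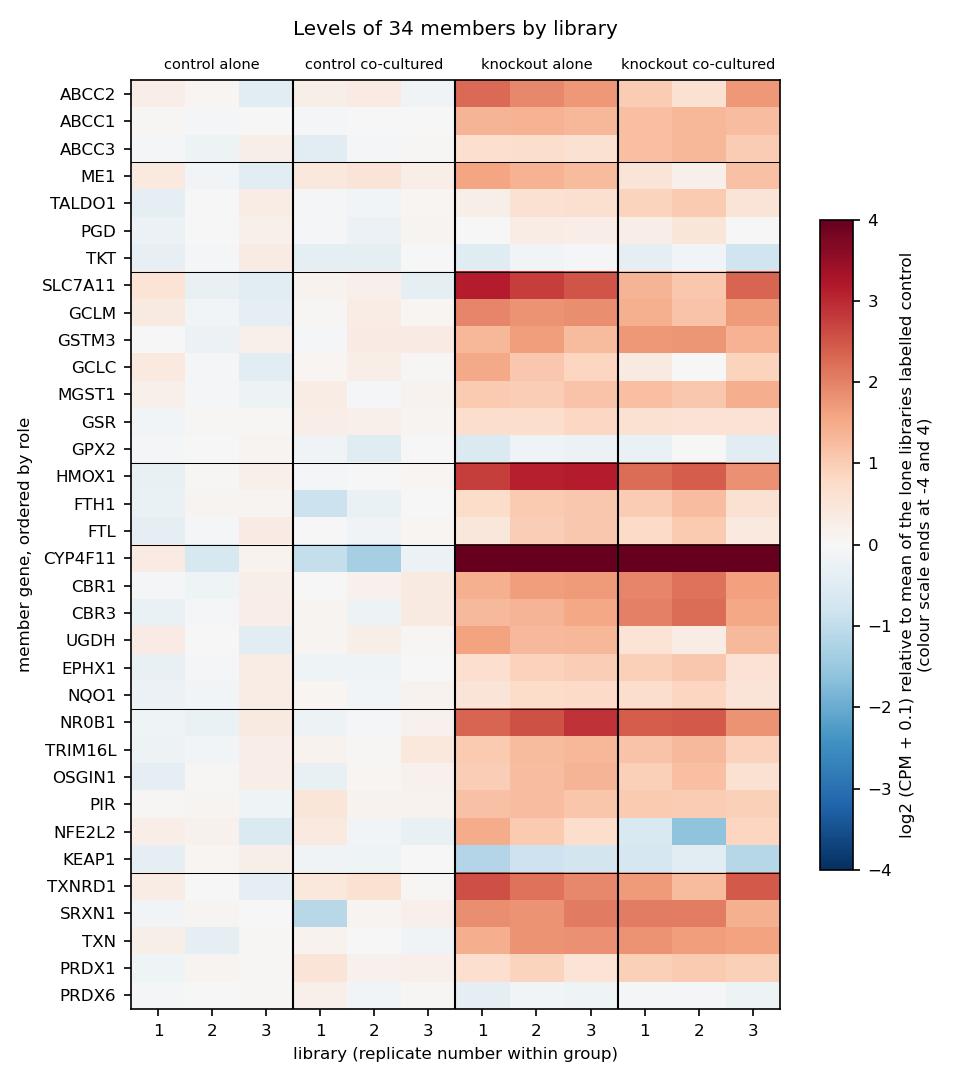
Each row is 1 member and each column 1 library; colour is log2 (CPM + 0.1) relative to the mean of the lone control-labelled libraries, and the scale ends at -4 and 4. The 6 knockout columns are red for most members, while KEAP1 is blue and GPX2, PRDX6, TKT and PGD are pale.

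The regulators divided. NFE2L2 (ENSG00000116044; chromosome 2, 177227595 to 177392697, minus strand) encodes NRF2 itself, and its exons overlap AGPS and an antisense gene, so its counts are uncertain. NFE2L2 stood at 11.8, 11 and 6.45 CPM in replicates 1 to 3 of the lone control-labelled cells and at 27.2, 20.3 and 15.9 CPM in the lone knockout. NFE2L2 levels in co-culture were 12.8, 9.11 and 7.95 CPM in the control-labelled and 6.30, 3.13 and 17.8 CPM in the knockout libraries. The lone knockout libraries were above all 6 control-labelled libraries, but their spread was wide, and in the co-cultured knockout replicate 3 stood far above replicates 1 and 2. NFE2L2 had a knockout-minus-control log2 fold change of 1.12 alone (± 0.49 SE, with an edgeR adjusted p = 0.0657) and of -0.13 in co-culture (± 0.48 SE, with an edgeR adjusted p = 0.839). Neither passed the threshold with all 12 libraries. Alone it did with only the 2 groups in the fit (edgeR adjusted p = 0.00388), and without replicate 3 of the co-cultured knockout it was lower than in the co-cultured control-labelled cells (log2 fold change -1.08, edgeR adjusted p = 0.0162). The replicates left in that group, 1 and 2, both deviated towards GC-rich transcripts (rank correlations 0.435 and 0.824), and NFE2L2 transcripts have a GC content of 43.4%. KEAP1 (ENSG00000079999; chromosome 19, 10486120 to 10503741, minus strand), the repressor of NRF2, went the other way from its targets. KEAP1 stood at 189, 257 and 290.2 CPM in replicates 1 to 3 of the lone control-labelled cells and at 109.9, 137 and 146 CPM in the lone knockout. KEAP1 levels in co-culture were 221, 218 and 250.1 CPM in the control-labelled and 153, 184 and 111 CPM in the knockout libraries. All 3 lone knockout libraries were below the 3 lone control-labelled ones, and the same held in co-culture. KEAP1 had a knockout-minus-control log2 fold change of -0.90 alone (± 0.20 SE, with an edgeR adjusted p = 0.0022) and of -0.62 in co-culture (± 0.20 SE, with an edgeR adjusted p = 0.0218). The libraries differed along the GC content of transcripts, and with GC offsets the lone difference of KEAP1 was -0.09 (edgeR adjusted p = 0.386). The co-culture call of KEAP1 was lost without replicate 3 of the control-labelled (edgeR adjusted p = 0.0522) or of the knockout libraries (edgeR adjusted p = 0.0669).

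NR0B1 and PIR, 2 regulators that are NRF2 targets, were higher in the knockout. NR0B1 (ENSG00000169297; chromosome X, 30304206 to 30309598, minus strand) encodes DAX-1, a nuclear receptor that represses transcription. NR0B1 stood at 6.07, 5.67 and 8.74 CPM in replicates 1 to 3 of the lone control-labelled cells and at 34.6, 40.0 and 51.5 CPM in the lone knockout. NR0B1 levels in co-culture were 5.88, 6.54 and 7.62 CPM in the control-labelled and 37.3, 37.7 and 23.8 CPM in the knockout libraries. Every knockout library was above every control-labelled library, and replicate 3 of the co-cultured knockout was the lowest of the 6. NR0B1 had a knockout-minus-control log2 fold change of 2.62 alone (± 0.24 SE, with an edgeR adjusted p = 1.8e-06) and of 2.30 in co-culture (± 0.24 SE, with an edgeR adjusted p = 5.76e-06). PIR (ENSG00000087842; chromosome X, 15384799 to 15493564, minus strand) encodes pirin, an iron-binding nuclear protein. PIR stood at 18.2, 19.0 and 15.4 CPM in replicates 1 to 3 of the lone control-labelled cells and at 39.8, 41.5 and 38.1 CPM in the lone knockout. PIR levels in co-culture were 24.5, 19.1 and 19.4 CPM in the control-labelled and 36.6, 35.4 and 33.7 CPM in the knockout libraries. The knockout and control-labelled ranges did not meet. PIR had a knockout-minus-control log2 fold change of 1.19 alone (± 0.14 SE, with an edgeR adjusted p = 1.76e-05) and of 0.75 in co-culture (± 0.14 SE, with an edgeR adjusted p = 0.000743). OSGIN1, a stress-induced growth inhibitor, stood at 41.0 ± 9.12 CPM (mean ± SD over 3 libraries) in the lone control-labelled and 94.0 ± 12.3 CPM (mean ± SD over 3 libraries) in the lone knockout cells (log2 fold change 1.20 ± 0.20 SE, with an edgeR adjusted p = 0.000282). TRIM16L, a TRIM-family gene, stood at 113 ± 19.8 and 263 ± 27.1 CPM (means ± SD over 3 libraries) in the same order (log2 fold change 1.22 ± 0.17 SE, with an edgeR adjusted p = 4.6e-05). In co-culture OSGIN1 stood at 41.0 ± 6.83 and 78.4 ± 15.4 CPM (means ± SD over 3 libraries; log2 fold change 0.94 ± 0.20 SE, with an edgeR adjusted p = 0.00183). In co-culture TRIM16L stood at 130.4 ± 17.4 and 248 ± 31.8 CPM (means ± SD over 3 libraries; log2 fold change 0.93 ± 0.16 SE, with an edgeR adjusted p = 0.000447). TRIM16L is closely related to TRIM16, so reads may be split between them.

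Of the 7 glutathione genes, 6 were higher in the lone and 5 in the co-cultured knockout, and none was lower. SLC7A11 (ENSG00000151012; chromosome 4, 138164097 to 138242349, minus strand) is the cystine importer that supplies cysteine for glutathione, and its exons overlap SLC7A11-AS1. SLC7A11 stood at 19.3, 10.7 and 9.51 CPM in replicates 1 to 3 of the lone control-labelled cells and at 118, 89.3 and 75.6 CPM in the lone knockout. SLC7A11 levels in co-culture were 14.6, 15.2 and 10.3 CPM in the control-labelled and 33.6, 28.2 and 66.8 CPM in the knockout libraries. Knockout levels were above every control-labelled level, and the co-cultured knockout libraries were all below the lone ones. SLC7A11 had a knockout-minus-control log2 fold change of 2.84 alone (± 0.36 SE, with an edgeR adjusted p = 2.31e-05) and of 1.68 in co-culture (± 0.34 SE, with an edgeR adjusted p = 0.00121). GCLM (ENSG00000023909; chromosome 1, 93885205 to 93909456, minus strand) is the modifier subunit of glutamate-cysteine ligase, the first enzyme of glutathione synthesis, and its promoter window is shown above. GCLM stood at 37.1, 27.0 and 22.4 CPM in replicates 1 to 3 of the lone control-labelled cells and at 112, 99.6 and 105 CPM in the lone knockout. GCLM levels in co-culture were 29.9, 35.6 and 30.6 CPM in the control-labelled and 77.4, 64.1 and 93.2 CPM in the knockout libraries. No knockout library came as low as any control-labelled one. GCLM had a knockout-minus-control log2 fold change of 1.88 alone (± 0.19 SE, with an edgeR adjusted p = 3.92e-06) and of 1.29 in co-culture (± 0.19 SE, with an edgeR adjusted p = 9.29e-05).

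GCLC, the catalytic subunit of the same enzyme, stood at 27.3 ± 8.07 and 61.9 ± 14.8 CPM (means ± SD over 3 libraries) in the lone control-labelled and lone knockout cells (log2 fold change 1.18 ± 0.26 SE, with an edgeR adjusted p = 0.00173). In co-culture GCLC stood at 30.0 ± 2.75 and 37.5 ± 11.8 CPM (means ± SD over 3 libraries), and the difference was not called (log2 fold change 0.32 ± 0.25 SE, with an edgeR adjusted p = 0.315). GSR, which regenerates reduced glutathione with NADPH, had the smallest called change of the group, from 256 ± 14.7 to 428 ± 26.9 CPM (means ± SD over 3 libraries) alone (log2 fold change 0.74 ± 0.12 SE, with an edgeR adjusted p = 0.000164). In co-culture GSR stood at 291 ± 16.7 and 384 ± 3.87 CPM (means ± SD over 3 libraries; log2 fold change 0.40 ± 0.12 SE, with an edgeR adjusted p = 0.0125). That call was lost without control-labelled replicate 3 (edgeR adjusted p = 0.063) or knockout replicate 1 (edgeR adjusted p = 0.0538). The glutathione transferase GSTM3 was low but higher in the knockout, 3.31 ± 0.497 against 9.09 ± 1.5 CPM (means ± SD over 3 libraries) alone (log2 fold change 1.45 ± 0.23 SE, with an edgeR adjusted p = 0.000143). MGST1, a microsomal transferase, was 116 ± 17.2 against 241 ± 12.8 CPM (means ± SD over 3 libraries) alone (log2 fold change 1.05 ± 0.16 SE, with an edgeR adjusted p = 9.58e-05), and with GC offsets this difference was 0.43 (edgeR adjusted p = 0.106). In co-culture GSTM3 stood at 3.85 ± 0.553 and 10.6 ± 1.54 CPM (means ± SD over 3 libraries; log2 fold change 1.46 ± 0.22 SE, with an edgeR adjusted p = 0.000129). In co-culture MGST1 stood at 127 ± 17.0 and 278 ± 37.7 CPM (means ± SD over 3 libraries; log2 fold change 1.13 ± 0.16 SE, with an edgeR adjusted p = 5.55e-05). GPX2, a selenium-containing glutathione peroxidase of epithelia, was the exception. It stood at 179 ± 12 and 143 ± 20.0 CPM (means ± SD over 3 libraries) alone (log2 fold change -0.32 ± 0.16 SE, with an edgeR adjusted p = 0.114) and at 156 ± 26.5 and 153 ± 22.1 CPM (means ± SD over 3 libraries) in co-culture (log2 fold change -0.03 ± 0.16 SE, with an edgeR adjusted p = 0.893).

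**Figure D2:**
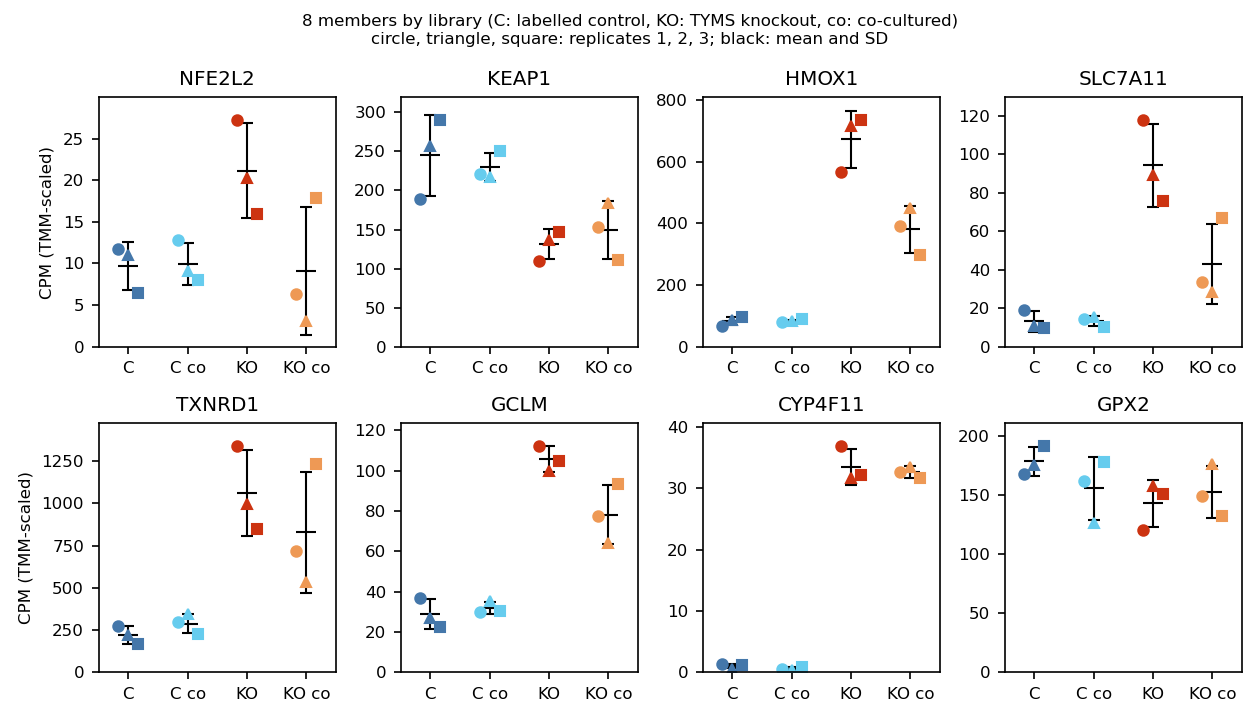
CPM of 8 members in each library (linear axes from 0; circle, triangle and square are replicates 1, 2 and 3; black marks are the mean and SD of 3 libraries). HMOX1, SLC7A11, TXNRD1, GCLM and CYP4F11 lie higher in both knockout groups than in both control-labelled groups, KEAP1 lies lower, and GPX2 overlaps in co-culture and lies lower without a call alone.

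Of the 5 thioredoxin and peroxiredoxin genes, 4 were higher in the knockout in both comparisons and PRDX6 was called in neither. TXNRD1 (ENSG00000198431; chromosome 12, 104215779 to 104350305, plus strand) encodes cytosolic thioredoxin reductase, which uses NADPH to keep thioredoxin reduced. TXNRD1 stood at 275, 224 and 170.3 CPM in replicates 1 to 3 of the lone control-labelled cells and at 1340.3, 994 and 849 CPM in the lone knockout. TXNRD1 levels in co-culture were 296, 344 and 228 CPM in the control-labelled and 719, 537 and 1230.3 CPM in the knockout libraries. The lowest knockout library still exceeded the highest control-labelled one, and within the co-cultured knockout replicate 3 was the highest. TXNRD1 had a knockout-minus-control log2 fold change of 2.25 alone (± 0.30 SE, with an edgeR adjusted p = 4.5e-05) and of 1.52 in co-culture (± 0.30 SE, with an edgeR adjusted p = 0.000925). TXN (ENSG00000136810; chromosome 9, 110243811 to 110256640, minus strand) encodes thioredoxin, and 7 annotated pseudogenes carry its name. TXN stood at 232, 152 and 202 CPM in replicates 1 to 3 of the lone control-labelled cells and at 539.8, 676 and 699.7 CPM in the lone knockout. TXN levels in co-culture were 214, 192 and 177 CPM in the control-labelled and 671, 622 and 602 CPM in the knockout libraries. The 2 knockout groups overlapped each other and no control-labelled library. TXN had a knockout-minus-control log2 fold change of 1.71 alone (± 0.17 SE, with an edgeR adjusted p = 3.36e-06) and of 1.70 in co-culture (± 0.17 SE, with an edgeR adjusted p = 3.98e-06). SRXN1, sulfiredoxin, which repairs oxidised peroxiredoxins, stood at 37.0 ± 2.80 and 139.8 ± 14.9 CPM (means ± SD over 3 libraries) alone (log2 fold change 1.92 ± 0.28 SE, with an edgeR adjusted p = 9.66e-05). Its exons overlap another protein-coding gene on the same strand. In co-culture SRXN1 stood at 33.2 ± 14.1 and 136 ± 30.7 CPM (means ± SD over 3 libraries; log2 fold change 2.03 ± 0.28 SE, with an edgeR adjusted p = 6.64e-05). PRDX1, an abundant peroxiredoxin, stood at 613 ± 63.4 and 1001 ± 118 CPM (means ± SD over 3 libraries) alone (log2 fold change 0.71 ± 0.15 SE, with an edgeR adjusted p = 0.00139), and its exons overlap MMACHC. In co-culture PRDX1 stood at 758 ± 101 and 1209.9 ± 48.6 CPM (means ± SD over 3 libraries; log2 fold change 0.68 ± 0.15 SE, with an edgeR adjusted p = 0.00217). PRDX6, a peroxiredoxin that reduces phospholipid peroxides, stood at 238 ± 11.4 and 206 ± 19.1 CPM (means ± SD over 3 libraries) alone (log2 fold change -0.21 ± 0.13 SE, with an edgeR adjusted p = 0.177). In co-culture PRDX6 stood at 247 ± 27.2 and 222 ± 11.6 CPM (means ± SD over 3 libraries; log2 fold change -0.15 ± 0.13 SE, with an edgeR adjusted p = 0.344). With GC offsets PRDX6 was lower in the lone knockout, at -0.62 (edgeR adjusted p = 0.00617).

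Of the 4 NADPH enzymes, 2 were higher in the lone knockout and 1 in co-culture, beside 28% and 24.1% of all genes. Their median log2 fold changes were 0.35 and 0.3 in the same order. ME1 (ENSG00000065833; chromosome 6, 83210389 to 83431071, minus strand) is cytosolic malic enzyme, which makes NADPH from malate. ME1 stood at 33.3, 23.5 and 18.6 CPM in replicates 1 to 3 of the lone control-labelled cells and at 75.4, 66.4 and 60.3 CPM in the lone knockout. ME1 levels in co-culture were 33.6, 36.1 and 30.0 CPM in the control-labelled and 35.7, 29 and 56.3 CPM in the knockout libraries. Alone the ranges were separate. In co-culture replicate 1 of the knockout lay within the control-labelled range, replicate 2 just below it and replicate 3 above it. ME1 had a knockout-minus-control log2 fold change of 1.42 alone (± 0.25 SE, with an edgeR adjusted p = 0.000362) and of 0.28 in co-culture (± 0.24 SE, with an edgeR adjusted p = 0.362). TALDO1 (ENSG00000177156; chromosome 11, 747329 to 765024, plus strand) is transaldolase of the pentose phosphate pathway. TALDO1 stood at 373, 482 and 589 CPM in replicates 1 to 3 of the lone control-labelled cells and at 571, 730.3 and 744 CPM in the lone knockout. TALDO1 levels in co-culture were 466, 441 and 513 CPM in the control-labelled and 884, 999 and 682 CPM in the knockout libraries. The lone ranges overlapped, and those in co-culture did not. TALDO1 had a knockout-minus-control log2 fold change of 0.50 alone (± 0.19 SE, with an edgeR adjusted p = 0.0407) and of 0.85 in co-culture (± 0.19 SE, with an edgeR adjusted p = 0.00269). The lone call of TALDO1 was lost without control-labelled replicate 1 (edgeR adjusted p = 0.146) or 2 (0.0985), without knockout replicate 2 (0.121) or 3 (0.128), and with RLE size factors (0.113).

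PGD, 6-phosphogluconate dehydrogenase, stood at 1146 ± 177 and 1316 ± 136 CPM (means ± SD over 3 libraries) alone (log2 fold change 0.20 ± 0.17 SE, with an edgeR adjusted p = 0.34) and passed the threshold with library size only (0.37, edgeR adjusted p = 0.00507). In co-culture PGD stood at 1107 ± 131 and 1385 ± 229 CPM (means ± SD over 3 libraries; log2 fold change 0.32 ± 0.17 SE, with an edgeR adjusted p = 0.14). TKT, transketolase, stood at 2391 ± 561 and 2055 ± 311 CPM (means ± SD over 3 libraries) alone (log2 fold change -0.22 ± 0.22 SE, with an edgeR adjusted p = 0.415). In co-culture TKT stood at 2038 ± 333 and 1817 ± 429 CPM (means ± SD over 3 libraries; log2 fold change -0.17 ± 0.22 SE, with an edgeR adjusted p = 0.562). Its lone difference changed sign with the setting: with GC offsets it was higher in the lone knockout, at 0.30 (edgeR adjusted p = 0.0269).

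All 6 quinone, carbonyl and xenobiotic enzymes were higher in the knockout in both comparisons, with log2 fold changes from 0.67 to 5.02 alone. CYP4F11 (ENSG00000171903; chromosome 19, 15912367 to 15934867, minus strand) is a cytochrome P450 of fatty acid omega-hydroxylation, and it had the largest difference of the 34 members. CYP4F11 stood at 1.30, 0.616 and 1.15 CPM in replicates 1 to 3 of the lone control-labelled cells and at 36.9, 31.6 and 32.1 CPM in the lone knockout. CYP4F11 levels in co-culture were 0.475, 0.344 and 0.856 CPM in the control-labelled and 32.7, 33.5 and 31.7 CPM in the knockout libraries. The highest of the 6 control-labelled libraries was at 1.30 CPM and the lowest of the 6 knockout libraries at 31.6 CPM. CYP4F11 had a knockout-minus-control log2 fold change of 5.02 alone (± 0.30 SE, with an edgeR adjusted p = 2.72e-08) and of 5.84 in co-culture (± 0.31 SE, with an edgeR adjusted p = 1.38e-08). CBR1 (ENSG00000159228; chromosome 21, 36069941 to 36073166, plus strand) is a carbonyl reductase that uses NADPH, and its exons overlap CBR1-AS1. CBR1 stood at 43.9, 40.9 and 54.7 CPM in replicates 1 to 3 of the lone control-labelled cells and at 126, 148 and 153 CPM in the lone knockout. CBR1 levels in co-culture were 45.7, 52.9 and 59.6 CPM in the control-labelled and 179, 211 and 145 CPM in the knockout libraries. Knockout libraries lay above control-labelled ones throughout. CBR1 had a knockout-minus-control log2 fold change of 1.61 alone (± 0.17 SE, with an edgeR adjusted p = 6.39e-06) and of 1.76 in co-culture (± 0.17 SE, with an edgeR adjusted p = 3.36e-06).

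CBR1's relative CBR3 was less abundant, 3.46 ± 0.689 against 9.40 ± 0.891 CPM (means ± SD over 3 libraries) alone (log2 fold change 1.44 ± 0.25 SE, with an edgeR adjusted p = 0.000301). In co-culture CBR3 stood at 3.75 ± 0.731 and 13.8 ± 3.12 CPM (means ± SD over 3 libraries; log2 fold change 1.88 ± 0.24 SE, with an edgeR adjusted p = 3.43e-05). NQO1, the quinone reductase often used as an NRF2 reporter, was abundant in every library, 935, 1032 and 1352 CPM in the lone control-labelled and 1570.3, 1841 and 1876 CPM in the lone knockout cells. Its difference was modest (log2 fold change 0.67 ± 0.17 SE, with an edgeR adjusted p = 0.0044), and with GC offsets it was 0.31 (edgeR adjusted p = 0.202). In co-culture NQO1 stood at 1131 ± 104 and 1797 ± 207 CPM (means ± SD over 3 libraries; log2 fold change 0.67 ± 0.17 SE, with an edgeR adjusted p = 0.00515). EPHX1, microsomal epoxide hydrolase, stood at 186 ± 40.5 and 338 ± 39.3 CPM (means ± SD over 3 libraries) alone (log2 fold change 0.86 ± 0.18 SE, with an edgeR adjusted p = 0.00126). In co-culture EPHX1 stood at 173 ± 12.3 and 345 ± 57.7 CPM (means ± SD over 3 libraries; log2 fold change 1.0 ± 0.18 SE, with an edgeR adjusted p = 0.000482). UGDH, which makes UDP-glucuronate for conjugation, stood at 86.8 ± 21.8 and 231 ± 29.8 CPM (means ± SD over 3 libraries) alone (log2 fold change 1.41 ± 0.25 SE, with an edgeR adjusted p = 0.000343). Exons of NQO1, CBR3, UGDH and, among the glutathione genes, GCLC and GSTM3 overlap genes of the other strand, and those of EPHX1 overlap TMEM63A, so reads could be shared. In co-culture the UGDH call (log2 fold change 0.64, edgeR adjusted p = 0.042) was lost without replicate 1, 2 or 3 of the control-labelled libraries (edgeR adjusted p = 0.103, 0.0725 and 0.13) or without replicate 3 of the knockout (0.218, log2 fold change 0.29).

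The haem and iron genes were higher in the knockout in both comparisons. HMOX1 (ENSG00000100292; chromosome 22, 35380361 to 35394214, plus strand) encodes haem oxygenase 1, which breaks down haem and is also induced by other stress signals. HMOX1 stood at 67.9, 85.1 and 96.2 CPM in replicates 1 to 3 of the lone control-labelled cells and at 566, 715 and 735 CPM in the lone knockout. HMOX1 levels in co-culture were 79.6, 83.0 and 88.1 CPM in the control-labelled and 392, 449.8 and 298 CPM in the knockout libraries. Its lone knockout libraries were the highest, its co-cultured knockout libraries were lower without overlap, and both were above all control-labelled libraries. HMOX1 had a knockout-minus-control log2 fold change of 3.02 alone (± 0.19 SE, with an edgeR adjusted p = 5.65e-08) and of 2.18 in co-culture (± 0.19 SE, with an edgeR adjusted p = 8.99e-07). FTH1 (ENSG00000167996; chromosome 11, 61959718 to 61967660, minus strand) is the heavy chain of ferritin, the iron store. Its exons overlap BEST1, and 25 annotated pseudogenes carry its name, so its level is uncertain. FTH1 stood at 1744, 2300.3 and 2285 CPM in replicates 1 to 3 of the lone control-labelled cells and at 3516, 4319 and 4483 CPM in the lone knockout. FTH1 levels in co-culture were 1163, 1761 and 2108 CPM in the control-labelled and 4285, 4937 and 3216 CPM in the knockout libraries. The 2 genotypes did not overlap. FTH1 had a knockout-minus-control log2 fold change of 0.96 alone (± 0.23 SE, with an edgeR adjusted p = 0.00344) and of 1.30 in co-culture (± 0.23 SE, with an edgeR adjusted p = 0.000475). FTL, the light chain, was the most abundant member per length, with 16 pseudogenes of its name. It stood at 4243 ± 1066 and 7739 ± 1719 CPM (means ± SD over 3 libraries) alone (log2 fold change 0.87 ± 0.23 SE, with an edgeR adjusted p = 0.00674). In co-culture FTL stood at 4193 ± 352 and 7219 ± 1590.2 CPM (means ± SD over 3 libraries; log2 fold change 0.78 ± 0.23 SE, with an edgeR adjusted p = 0.0134). That call was lost without control-labelled replicate 2 (edgeR adjusted p = 0.056) or knockout replicate 2 (edgeR adjusted p = 0.0593).

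All 3 ABCC exporters, which pump glutathione and glucuronide conjugates out of cells, were higher in the knockout in both comparisons. ABCC1 (ENSG00000103222; chromosome 16, 15949577 to 16143074, plus strand) varied little between replicates. ABCC1 stood at 189, 177 and 181 CPM in replicates 1 to 3 of the lone control-labelled cells and at 472, 481 and 459 CPM in the lone knockout. ABCC1 levels in co-culture were 176, 181 and 186 CPM in the control-labelled and 425, 458 and 431 CPM in the knockout libraries. The replicates of each genotype lay close together and far from the other genotype. ABCC1 had a knockout-minus-control log2 fold change of 1.37 alone (± 0.11 SE, with an edgeR adjusted p = 5.2e-07) and of 1.27 in co-culture (± 0.11 SE, with an edgeR adjusted p = 1.07e-06). ABCC2 (ENSG00000023839; chromosome 10, 99782640 to 99852594, plus strand) varied more. ABCC2 stood at 65.8, 58.0 and 39.7 CPM in replicates 1 to 3 of the lone control-labelled cells and at 263, 208 and 183 CPM in the lone knockout. ABCC2 levels in co-culture were 64.2, 68.4 and 49.9 CPM in the control-labelled and 109, 84.0 and 181 CPM in the knockout libraries. Within the co-cultured knockout, replicate 3 was about as high as the lowest lone knockout library, and replicates 1 and 2 were lower. ABCC2 had a knockout-minus-control log2 fold change of 2.0 alone (± 0.28 SE, with an edgeR adjusted p = 5.52e-05) and of 1.03 in co-culture (± 0.27 SE, with an edgeR adjusted p = 0.00633). ABCC3 (ENSG00000108846; chromosome 17, 50634777 to 50692252, plus strand) had every co-cultured knockout library above every lone one. ABCC3 stood at 288, 261 and 351 CPM in replicates 1 to 3 of the lone control-labelled cells and at 475, 490.5 and 459 CPM in the lone knockout. ABCC3 levels in co-culture were 219, 282 and 312 CPM in the control-labelled and 689, 755 and 612 CPM in the knockout libraries. ABCC3 had a knockout-minus-control log2 fold change of 0.66 alone (± 0.16 SE, with an edgeR adjusted p = 0.00386) and of 1.34 in co-culture (± 0.16 SE, with an edgeR adjusted p = 2.19e-05).

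**Figure D3:**
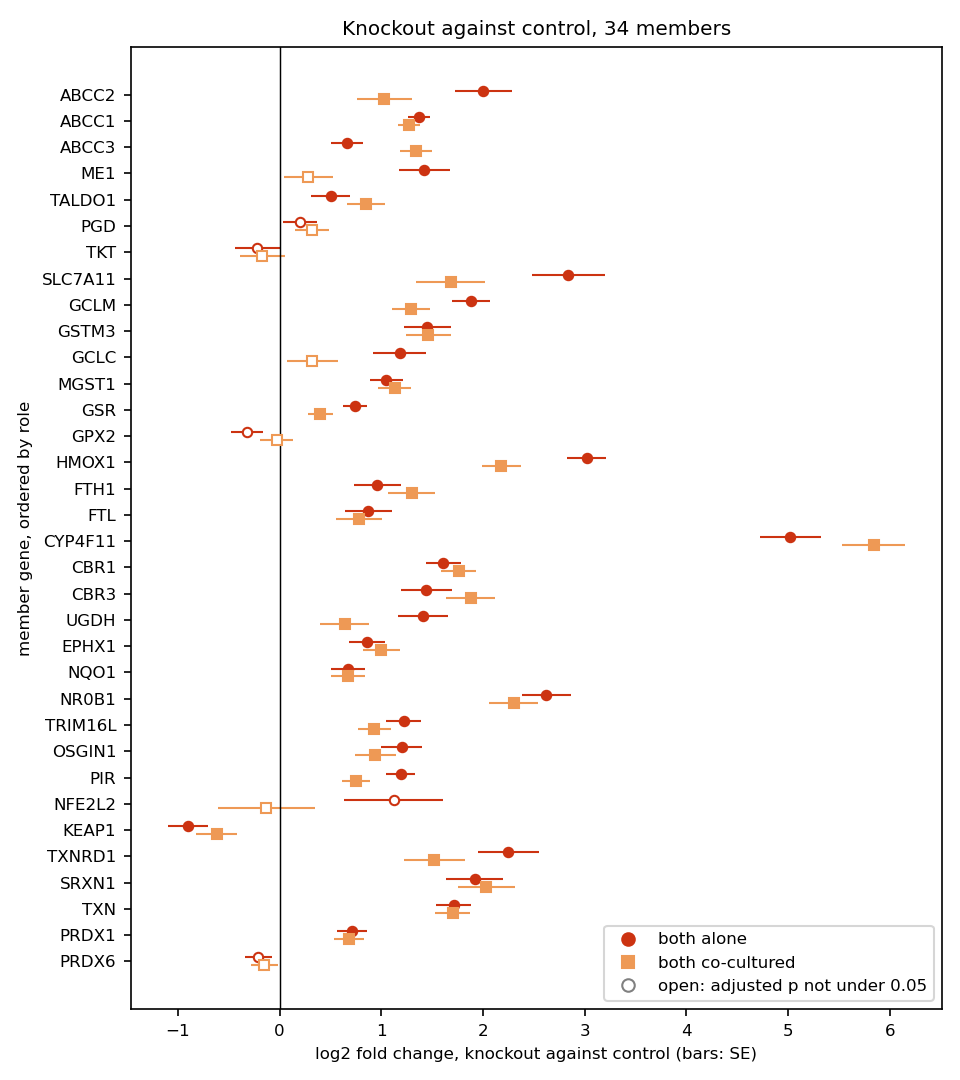
Log2 fold changes (points) with SE (bars) of the 34 members, knockout against control-labelled, alone (red circles) and in co-culture (orange squares); open symbols did not pass an adjusted p of 0.05. Alone 28 filled points lie right of 0 and KEAP1 lies left of it.

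Per kilobase of annotated exon, the members spanned a wide range of levels. The length merges all annotated exons of a gene and can exceed that of the transcripts present, so the order of genes is rough. TKT, for example, has 9507 merged bases, and its 2391 CPM in the lone control-labelled cells became 252 CPM per kb. In the lone control-labelled cells FTL (4833 ± 1214 CPM per kb), FTH1 (1039 ± 156), PRDX1 (403 ± 41.6), PGD (387 ± 59.6) and NQO1 (339.9 ± 67.1, each SD, n = 3) were highest. The SDs of PRDX1, PGD and NQO1 overlap, so these neighbours do not differ beyond their spread, while FTL and FTH1 stand apart from each other and from the rest. CYP4F11 (0.254 ± 0.0893), GSTM3 (0.698 ± 0.105), SLC7A11 (1.37 ± 0.552) and NFE2L2 (1.63 ± 0.480 CPM per kb, each SD, n = 3) were lowest. In the lone knockout FTL (8814 ± 1958) and FTH1 (2023 ± 255) were again highest, followed by PRDX1 (658 ± 77.6), TXN (559 ± 75.5) and NQO1 (542 ± 51.4 CPM per kb, each SD, n = 3). HMOX1 went from 34.5 ± 5.94 to 279 ± 38.2 CPM per kb (SD, n = 3 each), which placed it above KEAP1 in the knockout and below it in the control-labelled cells. GSTM3 and NFE2L2 were the lowest in the lone knockout, at 1.91 ± 0.316 and 3.54 ± 0.956 CPM per kb (SD, n = 3 each).

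Other genes of the pathway, a list of 70, differed in both directions. Of 65 that passed the filter, 27 were higher and 19 lower in the lone knockout, beside the 28% and 28.6% of all genes. In co-culture 25 were higher and 11 lower, beside 24.1% and 25.3% of all genes. GPX7, GSTA1, GSTM1 and SOD3 did not pass the filter, and SOD2 is not analysed here. Of 12 thioredoxin, peroxiredoxin, superoxide and catalase genes, 8 were lower and 3 higher in the lone knockout (28.6% and 28% of all genes). In co-culture 3 were lower and 1 higher (25.3% and 24.1% of all genes), so no more than those shares. PRDX2, a cytosolic peroxiredoxin, stood at 278, 438 and 457 CPM in the lone control-labelled and 0.423, 0.597 and 0.122 CPM in the lone knockout libraries (log2 fold change -9.93 ± 0.36 SE, with an edgeR adjusted p = 6.95e-10). It was also near 0 in the co-cultured knockout, at 0.452 ± 0.137 CPM (mean ± SD over 3 libraries). GPX4, the phospholipid peroxidase that guards against ferroptosis, was lower too, 619 ± 159 against 169 ± 39.3 CPM (means ± SD over 3 libraries; log2 fold change -1.87 ± 0.26 SE, with an edgeR adjusted p = 4.84e-05). Of 22 glutathione genes, 12 were higher and 5 lower alone (28% and 28.6% of all genes). In co-culture 12 were higher and 4 lower (24.1% and 25.3% of all genes). GLRX, glutaredoxin, was 11.6 ± 2.77 against 99.9 ± 7.57 CPM (means ± SD over 3 libraries; log2 fold change 3.11 ± 0.20 SE, with an edgeR adjusted p = 4.93e-08). ABCG2, a drug exporter, was 1.64 ± 0.479 against 12.3 ± 4.63 CPM (means ± SD over 3 libraries; log2 fold change 2.91 ± 0.36 SE, with an edgeR adjusted p = 2.37e-05). MAFF, a small MAF protein, was lower in the lone knockout, 33.7 ± 9.12 against 14.5 ± 2.42 CPM (means ± SD over 3 libraries; log2 fold change -1.22 ± 0.23 SE, with an edgeR adjusted p = 0.000559), and higher in the co-cultured knockout than in the co-cultured control-labelled cells, 65.4 ± 12.4 against 33.1 ± 6.03 CPM (means ± SD over 3 libraries; log2 fold change 0.98 ± 0.22 SE, with an edgeR adjusted p = 0.00246).

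In the knockout cells, co-culture against growth alone asked what differed in the state in which the series text says that proliferation was restored. HMOX1 and SLC7A11 fell, 2 of 34 members, and 0 of 34 rose, beside 5.4% lower and 5.97% higher of all genes tested. This comparison shares the lone knockout libraries with the first. HMOX1 fell from 672 ± 92.0 to 379.7 ± 76.7 CPM (means ± SD over 3 libraries), to a level 1.77-fold lower (log2 fold change -0.82 ± 0.18 SE, with an edgeR adjusted p = 0.0134). Its call was lost without lone replicate 2 (edgeR adjusted p = 0.0625) or without co-cultured replicate 1 (edgeR adjusted p = 0.055). SLC7A11 fell from 94.2 ± 21.5 to 42.9 ± 20.9 CPM (means ± SD over 3 libraries), 2.20-fold (log2 fold change -1.14 ± 0.33 SE, with an edgeR adjusted p = 0.0444). This call was lost without any 1 of the 3 lone libraries or of co-cultured replicates 1 and 2, with an edgeR adjusted p from 0.0605 (without lone replicate 3) to 0.185 (without co-cultured replicate 1), with the replicate block (0.0726) and with library size only (0.109). NFE2L2 itself had a log2 fold change of -1.22 (± 0.49 SE, with an edgeR adjusted p = 0.114), ME1 of -0.74 (± 0.24 SE, with an edgeR adjusted p = 0.0675) and ABCC3 of 0.53 (± 0.16 SE, with an edgeR adjusted p = 0.0526), none called. At an unadjusted edgeR p under 0.05 there were 10 of 34 members, beside 30.1% of all genes. The fit of the 6 knockout libraries alone, without the control-labelled ones, called 0 members, with HMOX1 and SLC7A11 at an edgeR adjusted p of 0.0546 and 0.109. DESeq2 called 7 lower and 1 higher. Shares of all genes by these fits are not given here. In the main fit the median over the members was -0.06, against 0.01 over all genes.

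Besides the losses of calls given above, the number of members called changed without 1 further library, co-cultured knockout replicate 3, and with GC offsets. Within each group, libraries deviated from the group mean along the GC content of transcripts, and replicates 2 and 3 of the co-cultured knockout were the extremes, with a rank correlation of 0.824 and -0.835 across 13574 genes, which are not independent. For the members, replicate 3 was the lowest of its group for 24 of 34 and replicate 2 the highest for 22 of 34. The members' co-culture log2 fold changes had a rank correlation with transcript GC of 0.36 over 34 members, and those of all genes a rank correlation of 0.494 over 13574 genes. Without replicate 3 of the co-cultured knockout, 9 members were lower and 3 higher, beside 21.2% lower and 12.2% higher of all genes. Replicates 1 and 2, which were left, both had positive rank correlations with GC (0.435 and 0.824), so this setting is not balanced for GC. The 9 were NFE2L2 (-2.18), SLC7A11 (-1.61), ABCC2 (-1.17), ME1 (-1.06), GCLC (-0.99), UGDH (-0.99), TXNRD1 (-0.75), HMOX1 (-0.67) and GCLM (-0.58), with log2 fold changes in brackets, and the 3 were CBR3 (0.72), ABCC3 (0.61) and CBR1 (0.46). Apart from HMOX1, the 9 had a transcript GC content from 35.9% to 45.3%, and the 3 from 55.6% to 58.9%. With GC offsets and all libraries, 10 were lower and 2 higher, beside 14.7% and 15.3% of all genes. The log2 fold change was then -1.06 for HMOX1 (edgeR adjusted p = 3.42e-07), -0.36 for SLC7A11 (edgeR adjusted p = 0.0473) and -0.96 for NFE2L2 (edgeR adjusted p = 0.0248). HMOX1, SLC7A11, NFE2L2, GCLC, ABCC2 and UGDH were lower and ABCC3 higher in both of these settings. Since the setting without replicate 3 is not balanced for GC, this overlap is not read as 2 settings bearing each other out. HMOX1 transcripts have a GC content of 60.2%, and those of SLC7A11 35.9%, so the 2 called genes stand near opposite ends of the members' range.

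**Figure D4:**
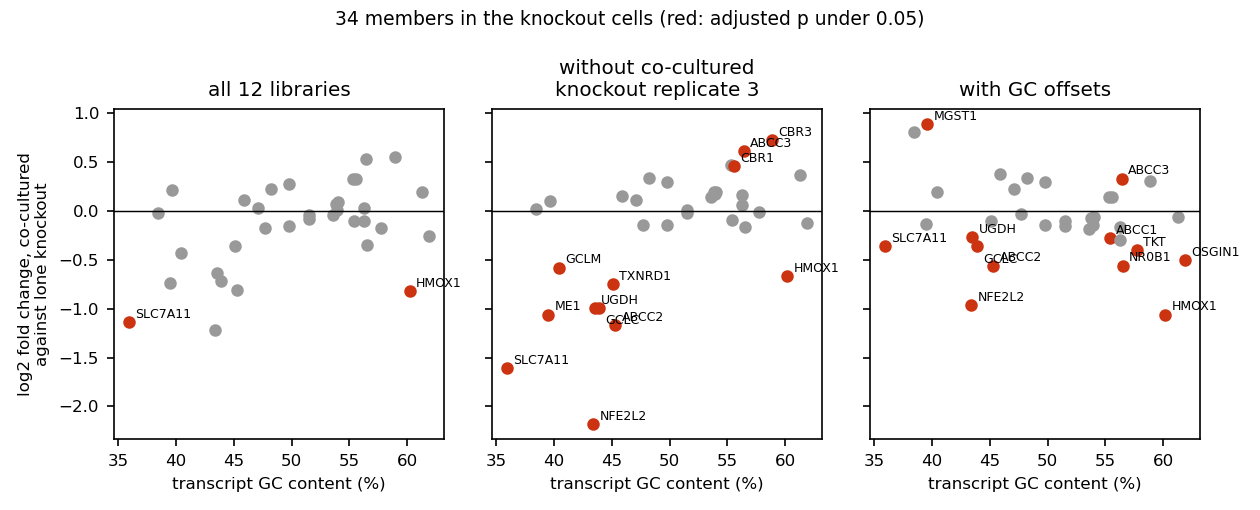
Log2 fold change of each member, co-cultured against lone knockout, by the GC content of its transcripts, with all 12 libraries, without co-cultured knockout replicate 3 and with GC offsets; red and named points had an adjusted p under 0.05. HMOX1 is red and below 0 in all 3 panels at 60.2% GC.

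In the control-labelled cells, co-culture was set against growth alone for comparison. Members called were 0 of 34 in either direction by edgeR, beside 0% higher and 0% lower of all genes, and 1 member, CYP4F11, had an unadjusted p under 0.05, beside 3.22% of all genes (log2 fold change -0.86, edgeR adjusted p = 1). DESeq2 called 0 higher and 0 lower. Log2 fold changes of the members ran from -0.86 to 0.4. The interaction, the co-culture difference in knockout minus that in control-labelled cells, was also called for 0 of 34 members by edgeR, beside 1.51% of all genes with a positive and 0.286% with a negative interaction. By DESeq2 it was called for 1 member, ME1 (-1.08, DESeq2 adjusted p = 0.0294), and 9 of 34 members had an unadjusted edgeR p under 0.05, beside 18.7% of all genes. For HMOX1 the interaction was -0.83 (± 0.25 SE, with an edgeR adjusted p = 0.128) and for SLC7A11 -1.16 (± 0.47 SE, with an edgeR adjusted p = 0.226). By this fit, without GC offsets, the fall of these 2 genes in co-cultured knockout cells was thus not shown to differ from their co-culture difference in control-labelled cells, 0.01 and 0.02. Without replicate 3 of the co-cultured knockout, 7 members had a negative and 1 a positive interaction, SLC7A11 (-1.63) and NFE2L2 (-2.21) among the negative ones. With GC offsets 3 were negative, HMOX1 (-1.25), OSGIN1 (-0.72) and ABCC2 (-0.63). The members' median interaction was 0.01 without that library and -0.16 with GC offsets, against 0 and -0.01 over all genes. Shares of all genes for the interaction by DESeq2 and in these settings are not given here. The counts are thus not read as results about the members. Of the 65 other pathway genes, in the knockout 6 rose and 2 fell in co-culture, beside 5.97% and 5.4% of all genes: MAFF (2.17), TXNIP (1.71), CHAC1 (1.20), NFE2L1 (0.60), BLVRA (0.55) and GLRX2 (0.50) rose, and ABCC4 (-1.64) and GLRX (-0.64) fell, with log2 fold changes in brackets. All 8 are named because they are few, after their values were seen.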

How the data were processed

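RNA sequencing libraries from 12 samples were deposited by the authors as 1 table of gene-level read counts, without normalization. Per the submitters' processing notes, the tools used included FastQC, STAR 2.7.9a, featureCounts, R 4.2.1 and DESeq2 1.36.0, with builds GRCh38 and hg38, and no role or order is stated. Per the labels' protocols the library kit was NEBNext Ultra RNA, and the annotation and strand setting are not given in the sources used here, so overlapping and antisense genes cannot be separated.

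Symbols were found for 42045 identifiers. Positions, exon lengths and GC content came from GENCODE 29 on GRCh38 and cover 58366. Fits used edgeR 4.0.16 under R 4.3.3: filterByExpr, TMM, a model of 4 group means, quasi-likelihood F-tests (robust), and Benjamini-Hochberg adjustment over all 16768 genes in each of 5 comparisons, with a threshold of 0.05. SE is the log2 fold change divided by the square root of F. The biological coefficient of variation was 22.1%. The fit was tested on simulated counts for co-cultured against lone knockout only, where large changes were mostly recovered and small ones mostly missed. The simulated libraries had no deviations along GC content, unlike the real ones, so recovery in the real libraries is not known. Replicate libraries differed by a chi-square of 8.35 to 131 per gene, so none was a repeated library.

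Members, lists and tests were chosen with earlier results of these data known. Full values are given for NFE2L2, KEAP1, the 2 members of each role with the smallest p in the lone comparison, and the 4 with the smallest p in co-culture against lone knockout. Other pathway genes named are the 3 highest and 3 lowest called with separate ranges and at least 5 CPM, and some results under this rule are not reported here. GC offsets were loess trends (span 0.5) of log2 CPM deviations (prior count 2) on transcript GC, per library, and they also remove any true difference that follows GC. Alternatives were RLE factors, library size only, no filter, DESeq2 1.42.0, 2-group fits, a 1.5-fold threshold, a replicate block, GC offsets and leaving out each library.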

Additional observations from a re-analysis of the deposited data

Results flagged for a closer look

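The co-culture difference differed between knockout and control-labelled cells for 2 of the 65 other pathway genes tested, by the interaction term of the edgeR model. Both interactions were positive. Of all genes tested, 1.51% had a positive and 0.286% a negative interaction. MAFF, a small MAF partner of NRF2, had an interaction of 2.20 on the log2 scale (± 0.32 SE, with an edgeR adjusted p = 0.00376). It stood at 24.8, 33.4 and 43.0 CPM in lone and 28.2, 31.3 and 39.8 CPM in co-cultured control-labelled libraries, and at 12.3, 14.2 and 17.1 CPM in lone and 68.2, 76.3 and 51.9 CPM in co-cultured knockout libraries. All 3 co-cultured knockout libraries were above the other 9, and all 3 lone knockout libraries were below them. The interaction ranged from 1.79 to 2.38 over the alternatives, with an adjusted p from 3.64e-12 to 0.0196.

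TXNIP, an inhibitor of thioredoxin, had an interaction of 1.97 (± 0.46 SE, with an edgeR adjusted p = 0.0481). It stood at 1.74, 0.986 and 0.656 CPM in lone and 0.653, 1.15 and 0.938 CPM in co-cultured control-labelled libraries, and at 5.67, 4.68 and 5.90 CPM in lone and 17.9, 14.5 and 20.6 CPM in co-cultured knockout libraries. The call was lost without any 1 of 10 of the 12 libraries and with library size only, with the 1.5-fold threshold or with the replicate block, and over all alternatives the adjusted p ran from 0.000159 to 0.17.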

How the results depend on the processing

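In knockout against control-labelled cells, the number of members higher stayed within 1.5 times under every alternative, from 20 to 29 alone and from 18 to 28 in co-culture. The 1 lower member, KEAP1, was lost (0) with the 1.5-fold threshold in both, and in co-culture also with RLE factors and with 2 groups only. In the lone comparison its call was also lost with GC offsets (-0.09) and with the replicate block and GC offsets (-0.09), where PRDX6 became the 1 lower member (-0.62 and -0.63). Leaving out 1 library gave 1 to 1 lower alone and 0 to 1 in co-culture. TKT in the lone comparison turned positive with GC offsets (0.30) and with the replicate block and GC offsets (0.30).

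For co-cultured against lone knockout, with 0 higher and 2 lower, the numbers of members higher and lower were 1 and 1 with library size only, 1 and 6 without the filter, 1 and 7 with DESeq2, 0 and 0 with 2 groups only and with the 1.5-fold threshold, 2 and 10 with GC offsets. Leaving out 1 library gave 0 to 3 higher and 0 to 9 lower. In the interaction, where none was called, 1 was negative with library size only and with DESeq2, 4 without the filter and 3 with GC offsets, and leaving out 1 library gave 0 to 1 positive and 0 to 7 negative. In co-cultured against lone control-labelled cells the counts stayed at 0 under every alternative.

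Replicate numbers did not pair the libraries: 7 of 18 same-numbered pairs correlated above 0.1 (-0.603 to 0.491), and 1 of 12 libraries correlated best with its own number. With the replicate block, co-cultured against lone knockout had 0 higher and 1 lower, and with the replicate block and GC offsets 1 and 8. The interaction then had 0 and 2 negative. Other pathway genes higher and lower numbered 14 and 6 alone and 18 and 4 in co-culture with the 1.5-fold threshold, and 25 and 6 in co-culture with 2 groups only. In co-cultured against lone knockout they were 10 and 1 with library size only, 15 and 3 without the filter, 10 and 5 with DESeq2, 4 and 0 with 2 groups only, 2 and 0 with the 1.5-fold threshold, 5 and 1 with the block, 17 and 6 with GC offsets and 19 and 12 without co-cultured knockout replicate 3. Their interactions ran up to 7 and 12, positive and negative, without that library. Scaling by library size only moved 7 of 136 member group means by more than their SD. Counts under these alternatives are given without the shares of all genes, and are not read as results about the listed genes. The cause of these changes was not tested.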
